A study of Mus musculus with 13 samples.

Results

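The T cell receptor segment probe sets are the 35 of 24922 probe sets on the array for which every annotated gene symbol names a variable (V), joining or constant segment of a T cell receptor locus. The rule uses symbols and no measured value, though it was proposed with earlier results of these data known. Of the 35, 30 belong to the alpha chain, 3 to the gamma chain, 1 to the delta chain and 1 to the beta chain. All 35 name V segments, and 0 name a constant region or a joining segment. Only 9 carry 1 symbol, while 26 carry several, and 19 hold the symbols Trav3n-3 and Trav3-3, in 8 cases with no other. Sets annotated with a shared transcript accession were read together, which left 19 groups, 15 of them alpha. The 35 sets name 25 of the 266 receptor segment genes in the RefSeq gene table. By that table the gamma members lie on chromosome 13, the alpha and delta members on 14 and the beta member on 6.

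Expression was measured with 1 Affymetrix mouse gene array per sample in thymocytes sorted by flow cytometry from 2-week-old mice labelled wild type (WT) or Sox4 conditional knockout (cKO), with both sexes mixed. V2 cells are immature gamma delta thymocytes, sorted as TCRd+ Vg2+ HSAhi without CD4 and CD8, and DP cells are the CD4+ CD8+ double positive thymocytes of the alpha beta lineage. The titles give 4 WT and 4 cKO arrays of V2 cells, written in 2 ways (V2imm and immV2), and 2 WT and 3 cKO arrays of DP cells. The driver and alleles of the conditional knockout and the number of animals behind a sample are not given in the sources used here. P-values therefore rest on the spread among these samples alone, and that spread may be technical.

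The gene of a T cell receptor chain is assembled in the thymus, where the RAG recombinase joins a V segment, in some loci a diversity segment, and a joining segment. Beta, gamma and delta loci rearrange in cells without CD4 and CD8, and the alpha locus rearranges at the double positive stage. The delta locus lies inside the alpha locus, between its V and joining segments, so that an alpha rearrangement deletes it. A V segment can be transcribed before it is rearranged, and a probe set for it reads such germline RNA as well as that of a finished receptor chain. The chain called Vg2 in the labels is named Trgv4 in the gene table's nomenclature.

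Markers of both populations were checked first, and 2 arrays stood against their labels. On 11 arrays, Cd4 was at 12.36 to 12.62 log2 intensity in DP and 6.71 to 7.36 in V2, and Cpa3, a listed V2 marker, was at 11.91 to 12.39 in V2 and 4.63 to 5.10 in DP. The array labelled DP cKO replicate 5 had Cd4 at 7.47, while Cd4 was at 12.65 in the array labelled V2 WT replicate 5 (immV2). These 2 arrays are shown apart and enter no comparison unless stated, which leaves 3 WT and 4 cKO arrays of V2 and 2 of each genotype of DP. They were set apart with their values known, so population differences on the other 11 arrays are not independent of that choice. Precision is limited by the small number of arrays, whose median linear intensities ran from 122.2 to 137.2.

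Between the populations, gamma and delta segments were higher in V2 and most alpha segments were higher in DP, in both genotypes. In V2 WT against DP WT, 25 of the 35 sets passed an adjusted p of 0.05 in limma (4 higher and 21 lower in V2), while 4.41% of all probe sets did (2.82% higher and 1.58% lower). In V2 cKO against DP cKO, the same 25 passed in the same directions (4 higher and 21 lower), against 4.82% of all probe sets (3.05% higher and 1.77% lower). This comparison uses other arrays, but shares the fit's estimate of the spread and a term for the V2 titles with the WT one. The 2 comparisons are therefore not independent. Over all probe sets, 3.11% passed the same way in both. The median difference, V2 minus DP, was -2.26 in WT and -2.03 in cKO over the members and -0.02 and -0.00425 over all probe sets. Without the 2 sets that hold Trgv4, the gene of the sorted chain, 2 of 33 were higher and 21 lower in each genotype. With all 13 arrays as labelled, 0 members passed in either comparison, against 0.0241% of all probe sets in WT and 0.0361% in cKO. In bulk samples, fewer cells with a transcript and less of it per cell cannot be told apart.

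**Figure D1:**
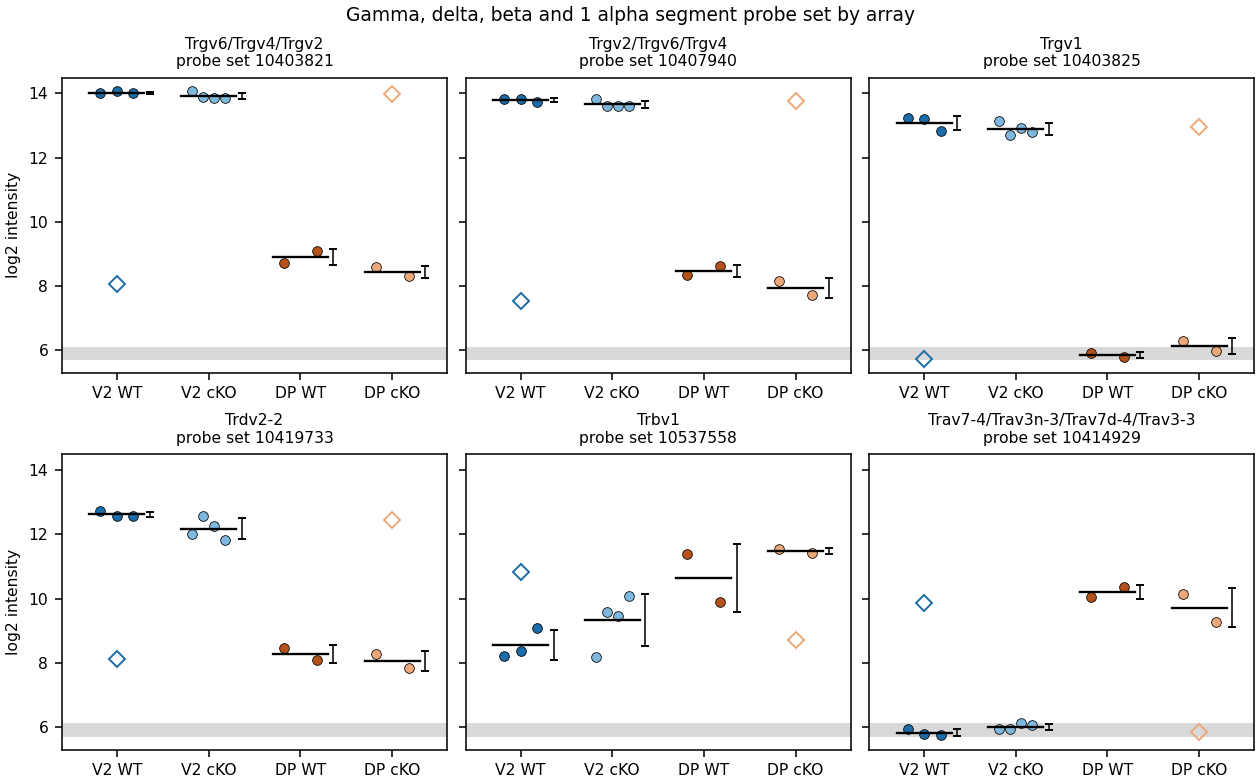
Log2 intensity of 6 receptor probe sets by labelled group, with 1 point per array, the group mean as a line and the SD as a bar. Open diamonds are the 2 arrays set apart, in the group of their label, and the grey band spans the lower quartiles of the 13 arrays (5.72 to 6.09). Gamma and delta sets are high in V2 and the 10414929 set is high in DP, and both diamonds sit with the other population.

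Gamma segments came first in size. Trgv1 (probe set 10403825), a V segment of another gamma chain than the sorted one, was at 13.24, 13.19 and 12.83 in V2 WT and at 13.13, 12.72, 12.92 and 12.80 in V2 cKO. In DP it was at 5.93 and 5.79 in WT and 6.30 and 5.97 in cKO. No DP array came near the V2 arrays, and all DP values lay near the arrays' lower quartiles, so the size of the difference depends on how background was treated. V2 exceeded DP by 7.19 log2 (SE 0.20, adjusted p = 4.7e-09, 146-fold) in WT and by 6.76 (SE 0.19, adjusted p = 4.7e-09) in cKO in limma's fit.

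Both sets that hold Trgv4, annotated together with Trgv2 and Trgv6, share their accessions and are counted as 1 group. Since the sort took cells by the Vg2 chain, their difference is a description of the gate. Probe set 10403821 was at 14.00, 14.06 and 14.00 in V2 WT, 14.07, 13.88, 13.87 and 13.87 in V2 cKO, 8.73 and 9.08 in DP WT and 8.58 and 8.31 in DP cKO. Probe set 10407940 ran from 13.60 to 13.82 over the 7 V2 arrays and from 7.73 to 8.61 over the 4 DP arrays. Both sets lay above the arrays' lower quartiles in every DP array.

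Trdv2-2 (10419733), the delta V segment among the members, was higher in V2 without overlap. It was at 12.71, 12.56 and 12.58 in V2 WT and 12.02, 12.58, 12.27 and 11.83 in V2 cKO, against 8.46 and 8.08 in DP WT and 8.27 and 7.84 in DP cKO. The difference was 4.32 (SE 0.24, adjusted p = 1.3e-06) in WT and 4.12 (SE 0.23, adjusted p = 1.1e-06) in cKO by limma. The sort required a delta chain on the surface, though not this V segment.

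Trbv1 (10537558), a V segment of the beta chain, was lower in V2, with wide ranges within groups. It was at 8.20, 8.37 and 9.07 in V2 WT, 8.19, 9.59, 9.46 and 10.07 in V2 cKO, 11.40 and 9.90 in DP WT and 11.54 and 11.42 in DP cKO. The lowest DP array, DP WT replicate 5, thus lay below the highest V2 array, V2 cKO replicate 4 (immV2), although the groups of each genotype did not overlap. V2 was lower by a difference of -1.96 (SE 0.45, adjusted p = 0.029) in WT and -2.15 (SE 0.42, adjusted p = 0.011) in cKO. The WT call rested on each of its arrays but DP WT replicate 5: the difference was -1.93 (adjusted p = 0.10) without V2 WT replicate 4 (V2imm), -2.01 (0.091) without V2 WT replicate 5 (V2imm), -1.93 (0.14) without V2 WT replicate 3 (immV2) and -1.21 (0.31) without DP WT replicate 3. Without the title set term it was -2.10 (adjusted p = 0.067). In cKO it was -2.09 (adjusted p = 0.12) without DP cKO replicate 3 and -2.21 (0.089) without DP cKO replicate 4.

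The alpha sets were lower in V2 in 20 of 30 cases, and the other 10 did not pass in either genotype. Over the 30 sets the fitted difference ran from -4.37 to -0.03 in WT and from -3.71 to -0.05 in cKO, so all 30 estimates lay below 0. The median alpha set of an array was at 9.60 to 10.14 in the 4 DP arrays, 7.82 to 8.15 in the 4 V2imm arrays and 7.06 to 7.46 in the 3 immV2 arrays.

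**Figure D2:**
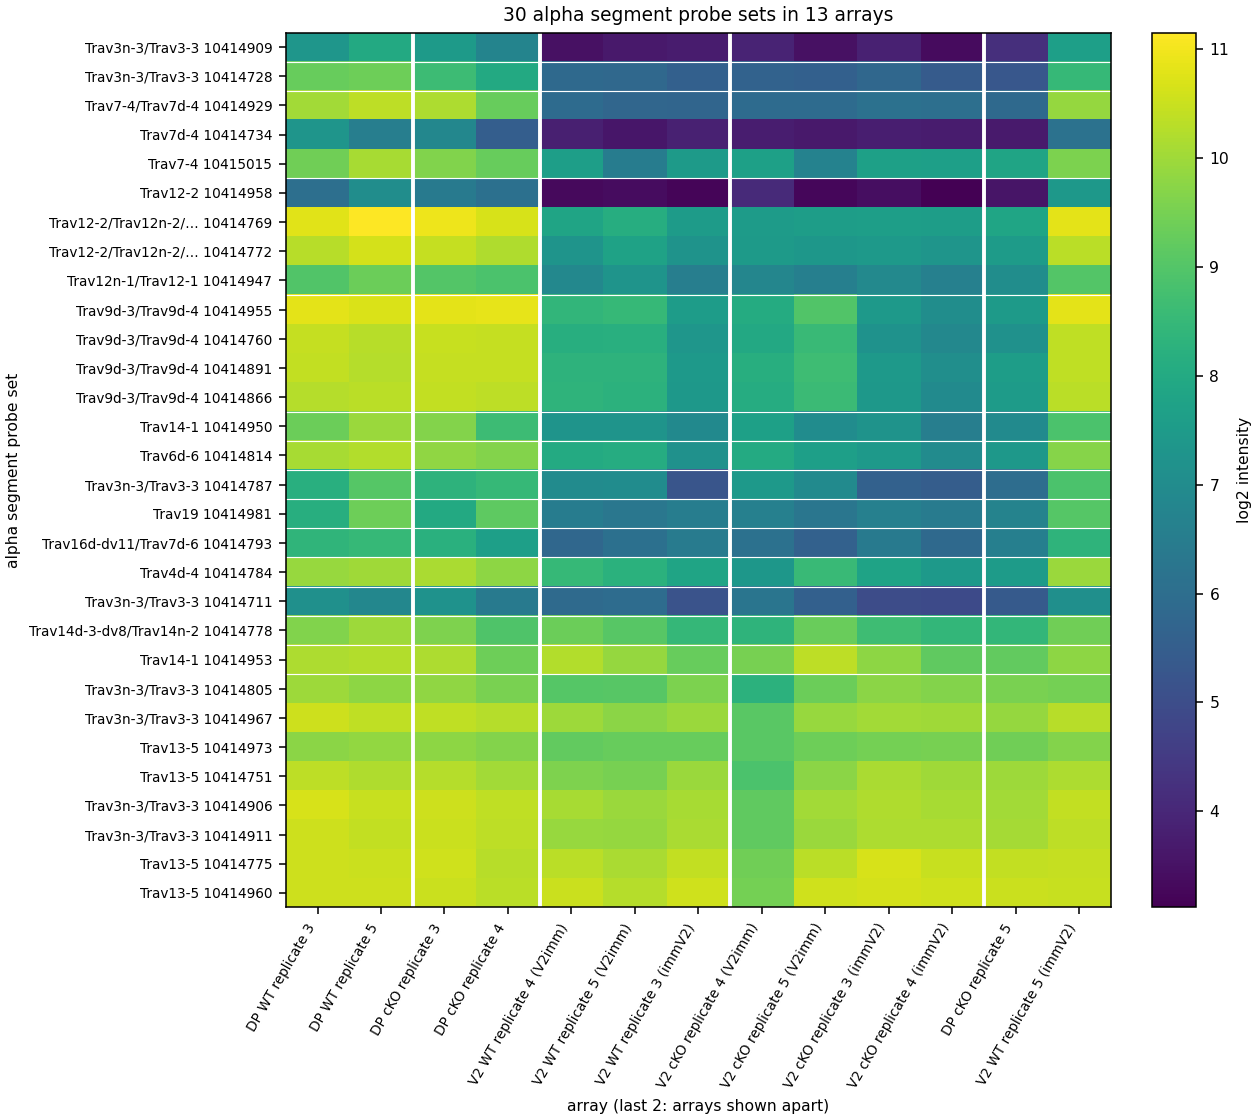
Log2 intensity of the 30 alpha probe sets (vertical axis, sorted by accession group and difference) in 13 arrays (horizontal axis), with the 2 arrays set apart in the last columns. Trav3n-3 and Trav3-3 are left out of names that hold other symbols. The lower 8 sets, the group of Trav13-5, have similar colours in both populations, and the upper 20 are darker in V2.

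Of the alpha differences, that of probe set 10414929 (Trav7-4, Trav7d-4, Trav3n-3 and Trav3-3) was the largest in both genotypes. It was at 5.94, 5.79 and 5.74 in V2 WT and 5.93, 5.94, 6.12 and 6.06 in V2 cKO, all at or near the lower quartiles of the arrays. In DP it was at 10.04 and 10.35 in WT and 10.15 and 9.28 in cKO. Its difference was -4.37 (SE 0.23, adjusted p = 7.1e-07) in WT and -3.71 (SE 0.21, adjusted p = 1.5e-06) in cKO in limma. The other sets of this group also passed, with -3.15 and -2.43 for Trav7d-4 (10414734) and -2.47 and -2.03 for 10415015.

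Probe set 10414909, named Trav3n-3 and Trav3-3, was at 3.48, 3.65 and 3.73 in V2 WT, 3.92, 3.49, 3.87 and 3.34 in V2 cKO, 7.33 and 7.98 in DP WT and 7.50 and 6.73 in DP cKO. It differed by -4.04 (SE 0.27) in WT and -3.46 (SE 0.25) in cKO. Probe set 10414728, with the same symbols and other accessions, was at 5.86, 5.85 and 5.58 in V2 WT, 5.65, 5.59, 5.82 and 5.41 in V2 cKO, 9.29 and 9.38 in DP WT and 8.62 and 8.002 in DP cKO. Its difference was -3.59 (SE 0.19) in WT and -2.70 (SE 0.18) in cKO. For both, the V2 and DP arrays were far apart. These 2, Trav7d-4, Trav12-2 (10414958) and 10414711 had V2 means below the lowest of the arrays' lower quartiles (5.72), so the size of these 5 differences depends on background. No alpha set had a DP mean that low.

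All 4 sets of the Trav12 group were lower in V2. Probe set 10414769 (Trav12-1, Trav12-2, Trav12n-1 and Trav12n-2) was at 7.53 to 8.11 over the 7 V2 arrays and 10.66 to 11.15 over the 4 DP arrays, with differences of -3.16 (SE 0.20) in WT and -3.22 (SE 0.19) in cKO. Probe set 10414772, with the same symbols, differed by -3.07 and -2.91. Trav12-2 (10414958) differed by -3.31 and -2.77, and 10414947 by -2.29 and -2.21. The 4 sets of the Trav9d group hold Trav9d-3 and Trav9d-4, and all but 10414891 also hold Trav3n-3 and Trav3-3. They were at 6.87 to 8.96 in V2 and 10.26 to 10.85 in DP. Their differences ran from -2.79 to -2.46 in WT and from -2.96 to -2.62 in cKO. Among the sets with accessions of their own, Trav19 (10414981) differed by -2.31 and -2.09. Others there hold Trav3n-3 and Trav3-3. They were 10414814 (with Trav6d-6) at -2.51 and -2.20, 10414784 (with Trav4d-4) at -1.84 and -2.18, and 10414711 at -1.45 and -1.39. All of these passed in both genotypes.

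The 8 sets of the Trav13-5 group, which share accessions with each other, did not pass in either comparison on the 11 arrays. Of these, 10414805, 10414906, 10414911 and 10414967 are named only Trav3n-3 and Trav3-3. So are 10414711, 10414728, 10414787 and 10414909, which passed as lower in V2 in both genotypes. A statement on these symbols therefore depends on the probe set. The 8 sets together were at 8.28 to 10.66 in V2 and 9.55 to 10.66 in DP. Set by set, V2 and DP arrays overlapped in 10414751, 10414775, 10414805 and 10414960. In 10414906, 10414911, 10414967 and 10414973 every V2 array lay below every DP array. For 10414973 this was 9.11 to 9.51 against 9.66 to 9.84. Of all probe sets, 8.22% stood apart in this way, in either direction. Differences ran from -0.54 to -0.03 in WT (95% intervals from -1.14 to 0.59, adjusted p from 0.17 to 0.997) and from -0.57 to -0.11 in cKO (intervals from -1.09 to 0.47, adjusted p from 0.23 to 0.94). In these samples a difference as large as those of the Trav9d group thus lay outside the intervals of all 8. Probe set 10414960 was closest to 0. It was at 10.50, 10.25 and 10.56 in V2 WT, 9.46, 10.56, 10.63 and 10.57 in V2 cKO, 10.52 and 10.55 in DP WT and 10.52 and 10.32 in DP cKO. Only V2 cKO replicate 4 (V2imm) stood low there, and it was the lowest of the 7 V2 arrays in all 8 sets.

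The pair of sets named Trav14-1 alone gave different answers. Probe set 10414950 ran from 6.54 to 7.69 in V2 and 8.63 to 9.93 in DP, and passed with -2.56 (SE 0.33, adjusted p = 0.00067) in WT and -2.02 (SE 0.31, adjusted p = 0.0023) in cKO. Probe set 10414953 ran from 9.20 to 10.36 in V2 and 9.37 to 10.22 in DP, and did not pass, with -0.49 (SE 0.31, adjusted p = 0.64) and -0.05 (SE 0.29, adjusted p = 0.98). A statement on this segment therefore depends on the probe set, and probe sequences were not used here.

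Symbols with the suffix dv mark V segments that can also join the delta chain, and 2 alpha sets carry one. Trav16d-dv11 (10414793, with Trav7d-6) passed with -2.26 (SE 0.23) in WT and -1.94 (SE 0.21) in cKO. It was at 5.62 to 6.47 over the V2 arrays and 7.67 to 8.50 over the DP arrays. Trav14d-3-dv8 (10414778, with Trav14n-2, Trav3n-3 and Trav3-3) did not pass, with -0.93 (SE 0.30, adjusted p = 0.14) and -0.57 (SE 0.28, adjusted p = 0.42). It was at 8.34 to 9.33 in V2 and 8.94 to 9.98 in DP, so the ranges overlapped.

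On overlap alone, 33 of the 35 sets stood apart in WT and 29 in cKO, while 26.3% and 20.9% of all probe sets did.

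**Figure D3:**
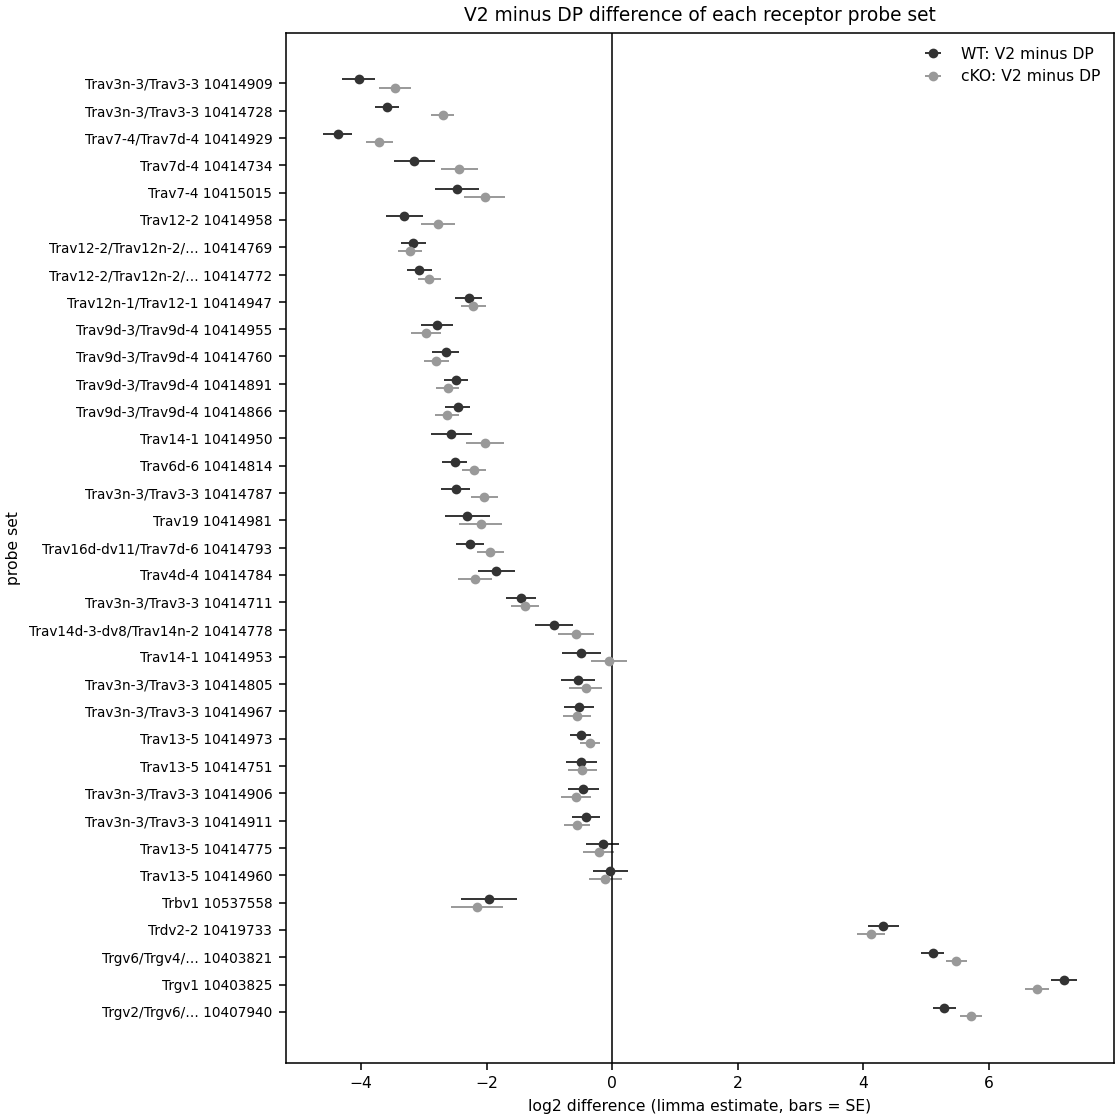
V2 minus DP difference of each of the 35 probe sets on the log2 scale, as estimated by limma on 11 arrays, with bars for the SE. Dark points compare WT arrays and grey points cKO arrays. The gamma and delta sets lie between 4.12 and 7.19, and the Trav13-5 group lies close to 0.

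The machinery of the loci was compared on lists chosen for this purpose, in which a gene counts as higher or lower where it passed in limma. Beside these counts stand the shares over all probe sets, 2.82% higher and 1.58% lower in WT and 3.05% and 1.77% in cKO. Of 15 measured genes of V(D)J recombination and end joining (16 listed), 2 were higher and 5 lower in V2 in each genotype, though not the same 7. Rag1, Rag2 and Dntt are also on the list of double positive markers, so their calls describe the populations and are no separate result. Rag1 and Rag2, the subunits of the recombinase, were lower in both, with differences of -5.97 (SE 0.17) and -6.15 (SE 0.26) in WT and -6.10 and -5.79 in cKO. Rag2 was at 4.64 to 5.79 in V2, below the lower quartile of each array, so the size of its difference depends on background. Xrcc6, a subunit of the Ku complex that binds DNA ends, differed by -1.43 and -2.03, and Dntt, the polymerase that adds bases at the joints, by -1.96 and -2.55. Xrcc5, the other Ku subunit, was higher in V2 in both, by 0.85 and 0.76. Of the genes called in 1 genotype, Atm, a kinase that responds to DNA breaks, was higher in WT (1.10, adjusted p = 0.0053) and at 0.62 in cKO (adjusted p = 0.079), and Poll, a DNA polymerase, was higher in cKO (0.75, adjusted p = 0.018) and at 0.67 in WT (adjusted p = 0.052). Hmgb2 and Hmgb1, DNA-bending proteins, were lower in WT (-0.87, adjusted p = 0.048) and in cKO (-1.03, adjusted p = 0.023) respectively. A call in 1 genotype is not a difference between genotypes. When the cKO effect was compared between V2 and DP, 0 of the 15 genes passed, against 0.0% of all probe sets. The list's median was -0.68 in WT and -0.52 in cKO.

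Among the 5 genes of the CD3 and pre-TCR complex, 2 were lower in V2 and 0 higher in each genotype. Ptcra, which pairs with the beta chain before alpha is made, differed by -1.81 in WT and -1.40 in cKO. It is also on the list of double positive markers, so its call is no separate result. Cd3g, a signalling subunit of the receptor complex, differed by -0.87 and -0.76. Its mean was 11.27 in the V2imm and 12.61 in the immV2 arrays, against 12.72 in DP WT and 12.77 in DP cKO, so its difference from DP lay mostly in the V2imm arrays. Of 16 measured regulators of receptor loci (18 listed), 4 were higher in V2 and 0 lower in each genotype, while the list's median was 0.07 in WT and -0.03 in cKO. They were Il7r, a receptor subunit whose signal opens the gamma locus (3.97 and 4.14), Runx3 (3.04 and 1.93) and Gata3 (1.76 and 1.64), which encode transcription factors of T cells, and Id2, an inhibitor of E proteins (1.42 and 3.21). Il7r is also on the list of V2 markers, so its call is no separate result.

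The members placed both arrays set apart with the other population. Over the 11 arrays, 28 of the 35 sets did not overlap between the 7 V2 and the 4 DP arrays, as did 8.22% of all probe sets. For these 28, the array labelled DP cKO replicate 5 was nearer the V2 median in 28, inside the V2 range in 23 and inside the DP range in 0. It had Trgv1 at 12.94, Trdv2-2 at 12.43 and 10414929 at 5.85, and its median alpha set was at 7.52. The array labelled V2 WT replicate 5 (immV2) was nearer the DP median in 28, inside the DP range in 22 and inside the V2 range in 0. There Trgv1 was at 5.72, Trdv2-2 at 8.11 and 10414929 at 9.87, with the median alpha set at 9.73. How these arrays came to stand so was not tested, and neither was moved to another group.

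No receptor segment passed between cKO and WT in V2 cells. In limma 0 of 35 were called, against 0.00401% of all probe sets. An unadjusted p under 0.05 was found in 0 members and in 900 of all 24922 probe sets. Estimates were below 0 in 24 and above 0 in 11, with a median of -0.09 against 0.01 over all probe sets, and every adjusted p was at least 0.999. Without V2 cKO replicate 4 (V2imm), 17 estimates were below 0 and 18 above, with a median of 0.01. Without V2 cKO replicate 5 (V2imm), 3 had an unadjusted p under 0.05, against 3627 of all 24922 probe sets. The groups overlapped in all 35, while 3.47% of all probe sets did not overlap. Trdv2-2 differed by -0.41 (SE 0.20, 95% interval -0.86 to 0.03) and Trgv1 by -0.16 (SE 0.17, -0.53 to 0.21). The Trgv4 sets, which read the sorted chain, differed by -0.08 (-0.41 to 0.25) and -0.11 (-0.45 to 0.23). Trbv1 had the widest interval, from -0.18 to 1.46 around 0.64. The alpha estimates ran from -0.33 in 10414784 (interval -0.87 to 0.21) to 0.25 in 10414787 (-0.18 to 0.68). A change of 1 log2 unit lay outside the intervals of these sets but that of Trbv1.

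In DP cells 0 of 35 passed as well, against 0.0241% of all probe sets. In limma 3 members had an unadjusted p under 0.05, against 616 of all 24922 probe sets. Estimates were below 0 in 28 and above 0 in 7, with a median of -0.18 (0.000666 over all probe sets). Without DP cKO replicate 4 they were below 0 in 23 and above in 12 (median -0.02), and without DP WT replicate 5 in 22 and 13 (median -0.12). With DP cKO replicate 3 or DP WT replicate 3 left out, 28 were below 0 and 7 above, with medians of -0.30 and -0.32. Probe set 10414728 differed by -1.02 (SE 0.21, interval -1.48 to -0.57, adjusted p = 0.38), with both cKO arrays below both WT arrays. With all 11 arrays, the other 2 at an unadjusted p under 0.05 were the Trgv4 sets, with -0.54 (SE 0.20, interval -0.98 to -0.10) for 10407940 and -0.46 (SE 0.19, interval -0.88 to -0.03) for 10403821, each with an adjusted p of 1. In DP, 14 of 35 did not overlap between the genotypes (5 higher and 9 lower in cKO), but with 2 arrays against 2 so did 29.0% of all probe sets (14.9% higher and 14.2% lower). Trbv1 differed by 0.83 (interval -0.23 to 1.89), Trgv1 by 0.27 (-0.20 to 0.75), Trdv2-2 by -0.22 (-0.79 to 0.36) and Trav7d-4 by -0.75 (-1.52 to 0.01). These values moved with single DP arrays. Trbv1 was at 0.08 without DP WT replicate 5 and 1.58 without DP WT replicate 3, and Trav7d-4 at -0.09 without DP cKO replicate 4, -0.39 without DP WT replicate 3 and -1.42 without DP cKO replicate 3. Leaving out 1 DP array gave 0.10 to 0.44 for Trgv1, -0.43 to -0.0027 for Trdv2-2, -1.33 to -0.71 for 10414728, -0.75 to -0.33 for 10407940 and -0.63 to -0.28 for 10403821. The 4 sets of the Trav9d group differed by 0.08 to 0.11.

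**Figure D4:**
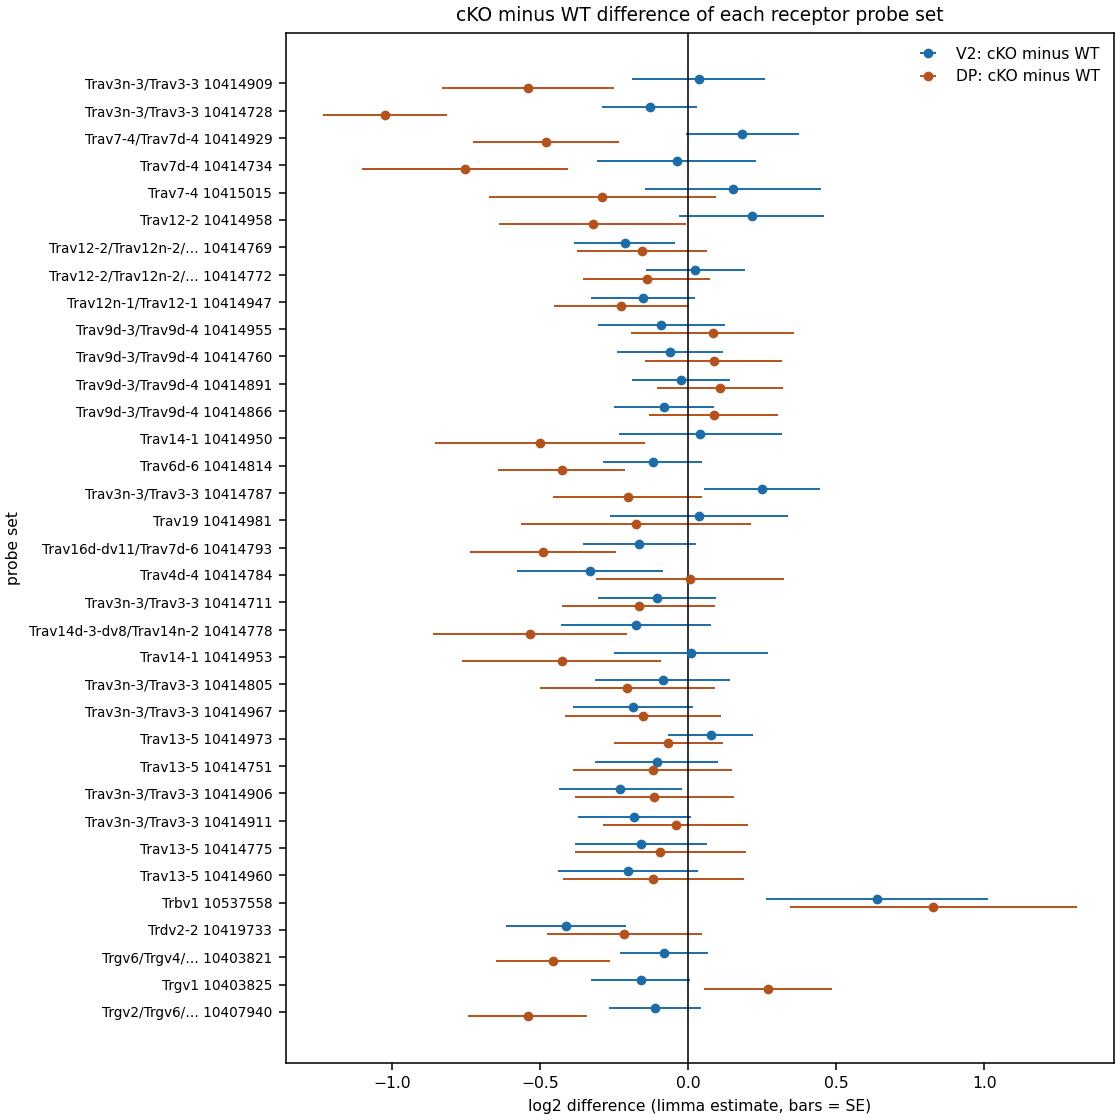
cKO minus WT difference of each of the 35 probe sets on the log2 scale in V2 (blue) and in DP (orange), as estimated by limma on 11 arrays, with bars for the SE. The V2 points lie between -0.41 and 0.64, and the DP points between -1.02 and 0.83, with 28 of 35 below 0.

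The DP arrays also varied among themselves. DP cKO replicate 4 was the lowest of the 4 DP arrays in 23 of 30 alpha sets, and DP WT replicate 5 was the highest in 17. Trav7d-4 was at 5.50 in DP cKO replicate 4 against 6.84 in DP cKO replicate 3, the widest range of any member in that group. Trav19 split the DP arrays another way, at 8.15 in WT and 8.01 in cKO for the replicates numbered 3, 9.36 in DP WT replicate 5 and 9.15 in DP cKO replicate 4. In DP WT the widest range was that of Trbv1, from 9.90 to 11.40.

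The cKO effect was not shown to differ between the populations for any member. In the test of that difference (V2 effect minus DP effect) 0 of 35 passed, against 0.0% of all probe sets. An unadjusted p under 0.05 was found in 1 member and in 434 of all 24922 probe sets. That member was 10414728, with 0.89 (SE 0.26, interval 0.32 to 1.47). Of the lists above, 0 of 5 CD3 and pre-TCR genes, 0 of 15 V(D)J recombination genes and 0 of 16 locus regulators passed between cKO and WT in either population.

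Within V2 cells, some alpha sets differed by the way the title is written, a comparison added after the values were seen. The labels do not say what the V2imm and immV2 titles mark. In limma 5 of 35 sets passed, all higher in V2imm, against 2.08% of all probe sets (0.867% higher and 1.21% lower). They were the 4 sets of the Trav9d group and 10414787 (Trav3n-3 and Trav3-3). On overlap alone, 13 members stood apart (7 higher and 6 lower in V2imm), as did 14.9% of all probe sets (8.68% higher and 6.21% lower).

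**Figure D5:**
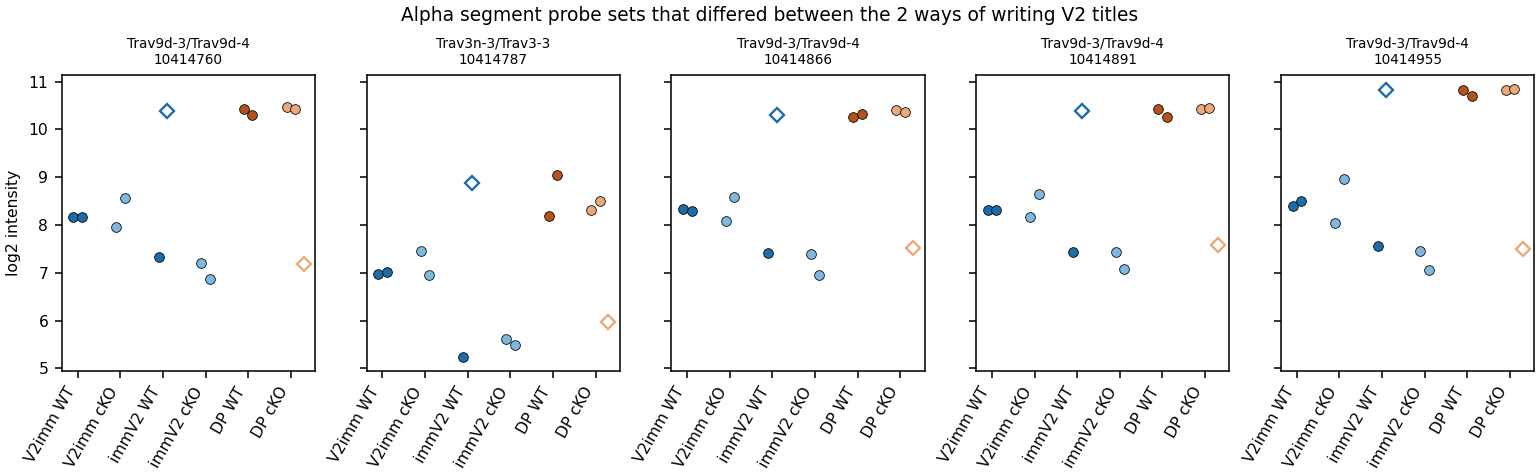
Log2 intensity of the 5 alpha probe sets that passed between the V2imm and immV2 titles, with 1 point per array and columns for title set and genotype. Open diamonds are the 2 arrays set apart, in the column of their label. V2imm points lie above immV2 points in both genotypes, and DP points lie above both.

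In the V2imm arrays the 4 Trav9d sets were at 7.95 to 8.96 and in the immV2 arrays at 6.87 to 7.55, in both genotypes. Probe set 10414891 was at 8.32 and 8.32 in V2imm WT, 8.16 and 8.65 in V2imm cKO, 7.44 in immV2 WT and 7.43 and 7.07 in immV2 cKO. It differed by 1.05 (SE 0.17, adjusted p = 0.0081), and the other 3 sets by 1.05 to 1.11 (adjusted p from 0.0087 to 0.022). Probe set 10414787 was at 6.98 and 7.02 in V2imm WT, 7.46 and 6.96 in V2imm cKO, 5.23 in immV2 WT and 5.61 and 5.48 in immV2 cKO. It differed by 1.71 (SE 0.20, adjusted p = 0.0011) and had the widest range of all members within V2 WT and within V2 cKO. The array labelled DP cKO replicate 5 had the Trav9d sets at 7.19 to 7.59 and 10414787 at 5.97. The count of called members was 1 (10414787) without V2 cKO replicate 4 (immV2), when 229 of all probe sets passed. It was 11 (7 higher and 4 lower in V2imm) without V2 cKO replicate 5 (V2imm), when 4462 of all probe sets passed. With all 13 arrays as labelled it was 0, against 1.5% of all probe sets. Without V2 cKO replicate 4 (immV2) the Trav9d sets differed by 0.92 to 0.97 (adjusted p from 0.051 to 0.11). Probe set 10414955 also lost its call without V2 WT replicate 5 (V2imm) (1.11, adjusted p = 0.070), V2 WT replicate 3 (immV2) (1.24, 0.079) or V2 cKO replicate 3 (immV2) (1.17, 0.060), and with the V2 arrays alone in the fit (1.11, 0.063).

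Other markers moved with the titles. All 7 macrophage and dendritic cell markers had a higher mean in V2imm, 6 of them with every V2imm array above every immV2 array, and the list's mean was 6.72 to 8.06 against 5.75 to 6.38. Cd74 was at 8.19 to 10.98 in V2imm and 6.19 to 7.77 in immV2. The 9 measured double positive markers averaged 7.32 to 7.57 in V2imm and 7.14 to 7.40 in immV2, with Ptcra and Rag2 higher without overlap and Cd4 lower without overlap. Rag2 lay below the lower quartile of each V2 array, at 5.23 to 5.79 in V2imm and 4.64 to 5.03 in immV2. The same list averaged 11.11 to 11.45 in DP. The 6 measured markers of immature V2 cells averaged 10.19 to 11.29 in V2imm and 10.57 to 11.43 in immV2. Of these, 2 had a higher mean in V2imm, and Il7r was lower without overlap (9.48 to 10.18 against 10.22 to 10.73). B cell markers were at 6.15 to 6.54 and 6.16 to 6.51, NK and innate lymphoid markers at 5.34 to 5.61 and 5.36 to 5.44, and the erythroid gene Alas2 at 6.26 to 6.77 and 6.20 to 6.29. Cd3d and Cd3g, subunits of the receptor complex, were lower in V2imm, with differences of -1.19 (SE 0.25) and -1.31 (SE 0.16). The part of these in the alpha difference was not tested.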

How the data were processed

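Per the submitters' processing notes, the authors used RMA and Affymetrix Power Tools, with no version given, and the deposited table holds 1 linear intensity per probe set and array (6.16 to 23800). RMA corrects background, normalises arrays and summarises probes. Symbols came from GEO's platform annotation and matched the RefSeq gene table by gene ID in all 35 members. Only 21425 of 24922 probe sets have 1 symbol (1399 have several and 2098 are not listed), and all were kept.

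Log2 values were fitted with limma 3.58.1 in R 4.3.3 (lmFit, eBayes with an intensity trend) on 11 arrays. The fit had 4 group means and a term for the V2 title set (0.5 for V2imm and -0.5 for immV2), so a fitted difference can depart from that of the group means, also in sign. For 10414787 the V2 means were 6.38 in cKO and 6.41 in WT, while the fitted difference was 0.25. P-values are two-sided, with Benjamini-Hochberg adjustment over all probe sets and a threshold of 0.05. Intervals are at 95%. The knockout in V2imm titles, written without a gene, was read as that of Sox4.

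Members, lists, tests and the 2 arrays set apart were chosen with earlier results of these data known. Named members are all gamma sets, up to 5 per chain and direction with the largest called population difference, up to 5 per direction with the smallest p between genotypes, and the widest range per group; others are given for their accession group, and the title comparison was added later. Where leaving out an array leaves a group with 1, that sample is assumed to vary like the others. The code was tested on simulated data. Figures used matplotlib 3.10.9 in Python 3.11.15.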

Additional observations from a re-analysis of the deposited data

Results flagged for a closer look

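In the V2 cKO group (4 arrays), 6 of 35 probe sets had an array far from the rest by Dixon's criterion, which chance meets in about 1 of 20 groups. V2 cKO replicate 4 (V2imm) was the far array in 5 of them. It was high in both Trgv4 sets, at 14.07 in 10403821 (others 13.87 to 13.88) and 13.81 in 10407940 (others at 13.60). It was low in 3 sets of the Trav13-5 group, at 9.19 in 10414906 (others 10.05 to 10.18), 9.46 in 10414960 (others 10.56 to 10.63) and 9.09 in 10414967 (others 9.90 to 10.05). The Trgv4 sets share accessions, and so do these 3 sets, so the 6 are not separate cases to set against 1 in 20. V2 cKO replicate 4 (V2imm) also had the lowest upper quartile of intensity of the 13 arrays, at 332.7. V2 cKO replicate 5 (V2imm) was low in 10415015 (Trav7-4, Trav3n-3 and Trav3-3), at 6.69 against 7.65 to 7.68. V2 WT replicate 5 (V2imm) was at 6.50 there, in a group too small for the same criterion.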

How the results depend on the processing

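The alternatives that kept more than 1 array in every group called 22 to 29 members in V2 WT against DP WT, with 699 to 1673 of all probe sets tested. In V2 cKO against DP cKO they called 22 to 25, with 655 to 1746 of all. When V2 arrays were left out in turn, the count of called members was 24 to 29 in WT (702 to 1673 of all) and 25 in cKO (907 to 1746 of all). It was 0 in both comparisons of cKO with WT and in their difference in every setting run. The title comparison gave 1 to 11 when V2 arrays were left out in turn, against 229 to 4462 of all probe sets. With all 13 arrays as labelled it gave 0 (373 of all passed), as did V2 against DP in WT (6 of all) and in cKO (9 of all). Single probe sets were followed across settings only if picked for a comparison, by the largest called differences or the smallest p. Calls that other members lost or gained are therefore not counted here. Without the title set term, 22 members were called in V2 WT against DP WT and 23 in V2 cKO against DP cKO. Of 1128 differences of the picked sets, 1068 kept their direction and side of the threshold, 40 lost the call and 20 changed sign. None of the 20 had passed the threshold. With all 13 arrays, cKO minus WT in V2 became 1.65 for Trgv1, -0.65 for 10414787, -0.82 for 10414929, -0.86 for 10414958 and 0.69 for Trdv2-2. In DP it became 1.39 for 10403821, 1.40 for 10407940, -1.003 for 10414760, -0.87 for 10414866, -0.84 for 10414891 and -0.0923 for Trbv1, and the difference of effects became 0.14 for 10414760 and 0.0393 for 10414866. Without the title set term 10414787 was at -0.0339 in V2. Without V2 cKO replicate 4 (V2imm), 10414906 was at 0.0294 and 10414958 at -0.0134. Without V2 WT replicate 3 (immV2), 10414973 was at -0.0151 and the difference of effects for 10414760 at 0.0042. Without DP cKO replicate 3 that for Trdv2-2 was 0.0158, and without DP cKO replicate 4 it was -0.41. Residuals of same-numbered samples, taken without the title set term, correlated at 0.26, -0.06, 0.34 and 0.11 within a title set. V2 samples of other numbers correlated at 0.06, 0.47 and 0.64 there. Between V2 and DP the same-numbered values were 0.26, -0.10, 0.19, -0.0049 and -0.02. With 2 arrays per DP genotype their residuals mirror each other, so DP values for same and other numbers differ only in sign. The check therefore does not settle whether numbers mark pairs, and they were not taken as pairs. With title set and replicate number as a block, V2 cKO replicate 4 (immV2) drops out of the V2 comparison, and in DP 1 cKO array is set against 1 WT array (both numbered 3). The DP values under this block therefore say nothing about stability. The block called 0 members in V2, in DP and in their difference (9, 9 and 7 of all probe sets passed, against 1, 6 and 0 without it), and the difference of effects for 10414909 was -0.0297. A term for the number shared by V2 and DP, added after seeing the data, left 25 members called in each population comparison (4 higher and 21 lower). With it, 1031 of all probe sets passed in WT and 1098 in cKO. The causes of these changes were not tested.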
